A study of Arabidopsis thaliana with 18 samples.

Results

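The genes described are 4 that act on pectin in the cell wall and TBL26, which belongs to the TRICHOME BIREFRINGENCE-LIKE family. They are 5 of the 13355 genes that have a probe set of their own on the arrays. They are the pectin methylesterase inhibitor genes AT4G25260 and AT1G14890, the pectate lyase genes AT4G24780 and AT1G67750, and TBL26 (locus AT4G01080), found by locus or symbol in the platform annotation, where each has 1 probe set. The values that picked them are not recorded. Among earlier results of these data, AT4G25260, AT1G67750 and TBL26 stood out in low R:FR against control light, and AT4G25260, AT1G14890 and AT4G24780 in the combined treatment against control light. Their light values are therefore given as a description without a test. The density comparison was tested, but whether its values also played a part in the choice is not known.

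RNA from petioles (leaf stalks) of Arabidopsis thaliana Col-0 was hybridised to 18 Affymetrix arrays in 6 groups of 3. In the density experiment, plants of 37 d came from a dense canopy (2066 plants per m2) or had been kept single, with the petioles of 4 plants pooled per replicate. In the light experiment, single plants of 29 d were harvested after 24 h of low R:FR (a low ratio of red to far-red light), low blue light, both together (called combined) or control light. All plants had grown in the same chamber conditions until 28 d, potted singly from 10 d on, and the canopy began at potting. No mutant or transgene is involved. The labels do not describe how the light replicates were pooled, and the spread among them may be technical only.

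Pectin is the gel of the primary wall, and its main chain, homogalacturonan, is secreted with methyl groups on it. Pectin methylesterases remove these groups, and proteinaceous inhibitors bind the enzymes and block them. Pectate lyases cut the chain where the methyl groups are gone. Proteins of the TRICHOME BIREFRINGENCE-LIKE family add acetyl groups to wall polysaccharides. Petioles of Arabidopsis elongate in shade, and wall remodelling accompanies that growth.

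Array medians ran from 1.6 to 1.66 on the log2 scale. For 46.8% of probe sets the mean stayed under 1.5, near the floor of the array, and changes there come out too small. Over all 18 arrays the 5 genes lay between 2.16 and 7.48, above 1.5. The lowest levels were those of TBL26 in low blue, at 2.16 to 2.27, not far above the floor, and its change there may also come out too small. The mesophyll gene RCA lay at 10.8 to 11.2 on every array and the pollen pectate lyase gene AT59 at 0.79 to 1.28. The phloem gene SWEET11 (1.11 to 1.52) and the guard cell genes FMA (1.47 to 2.22) and SPCH (0.78 to 1.25) were near the floor, and the other markers listed (among them those of xylem, epidermis, petiole base and flower) had no probe set named here. Of the root markers PYK10 was named, and it was higher in the canopy, at 2.85 to 3.69 against 0.69 to 2.64 in single plants (log2 change 1.69 ± 0.45, SE; limma adjusted p = 0.0412). Its part in the canopy results was not tested. In whole petioles, fewer cells of a type and less RNA per cell cannot be told apart.

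**Figure D1:**
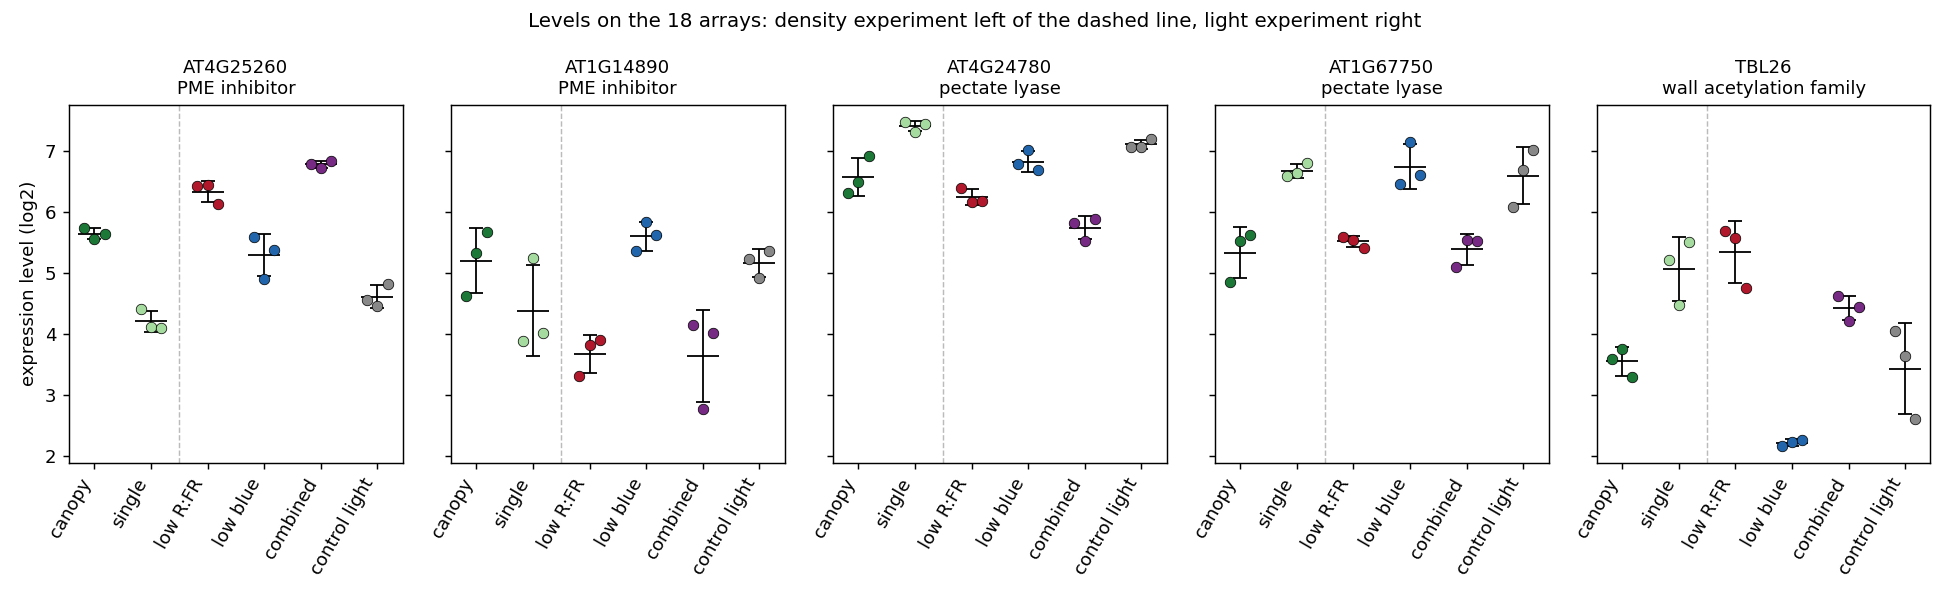
Level of each of the 5 genes (log2, vertical axis) on every array in the 6 groups, with the bar at the mean and whiskers of 1 SD over 3 arrays. AT4G25260 was lowest in single plants at 4.21 and highest in the combined treatment at 6.79, whereas TBL26 was lowest in low blue at 2.22 and highest in low R:FR at 5.35. Heights compare groups within a gene, not genes with each other.

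The density comparison asks how a crowded stand changes the petiole. In the canopy the inhibitor gene AT4G25260 rose, both pectate lyase genes fell, and TBL26 fell. The inhibitor gene AT1G14890 did not pass the test. In all, 4 of the 5 genes were called at a Benjamini-Hochberg adjusted p under 0.05, 1 higher and 3 lower, where limma called 4.26% of all 22746 probe sets (2.11% higher and 2.15% lower). The arrays of both groups did not overlap for the same 4 genes, which holds for 19.3% of all probe sets. Read against these shares, the counts are support only as far as the canopy values had no part in choosing the genes.

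AT4G25260 had levels of 5.74, 5.56 and 5.64 on the canopy arrays, against 4.42, 4.11 and 4.10 in single plants. Every canopy array lay above every single plant array, and the gene rose 2.71-fold (log2 change 1.44 ± 0.15, SE; limma adjusted p = 4.43e-05). AT1G14890 had 4.63, 5.33 and 5.67 in the canopy, against 3.89, 5.25 and 4.02 in single plants. Single plant replicate 2 lay within the canopy range and the groups overlapped. The log2 change of 0.82 ± 0.37 had a limma adjusted p of 0.309, with an unadjusted 95% interval of 0.04 to 1.61, so a change as large as that of AT4G25260 lies within it. Without single plant replicate 2 the change was 1.25 (limma adjusted p = 0.0621), and over the 6 leave-outs it ran from 0.58 to that value.

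The pectate lyase gene AT4G24780 had 6.32, 6.50 and 6.92 in the canopy, against 7.48, 7.32 and 7.44 in single plants. All canopy arrays were lower, with a log2 change of -0.84 ± 0.14 (limma adjusted p = 0.00174). AT1G67750 had 4.86, 5.53 and 5.63 in the canopy, against 6.60, 6.65 and 6.82 in single plants. Here too the groups were apart, and the change was larger, at -1.35 ± 0.23 (limma adjusted p = 0.00224).

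TBL26 had 3.59, 3.77 and 3.31 in the canopy, against 5.21, 4.49 and 5.52 in single plants. All canopy arrays were lower, and the gene fell 2.87-fold (log2 change -1.52 ± 0.32, limma adjusted p = 0.00944). Without single plant replicate 3, the highest of its group, the change was -1.30 and the limma adjusted p was 0.0644. The canopy calls of AT4G25260, AT4G24780 and AT1G67750 held with any 1 of the 6 density arrays left out (highest limma adjusted p = 0.000495, 0.0122 and 0.0153 for the 3 genes in that order).

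**Figure D2:**
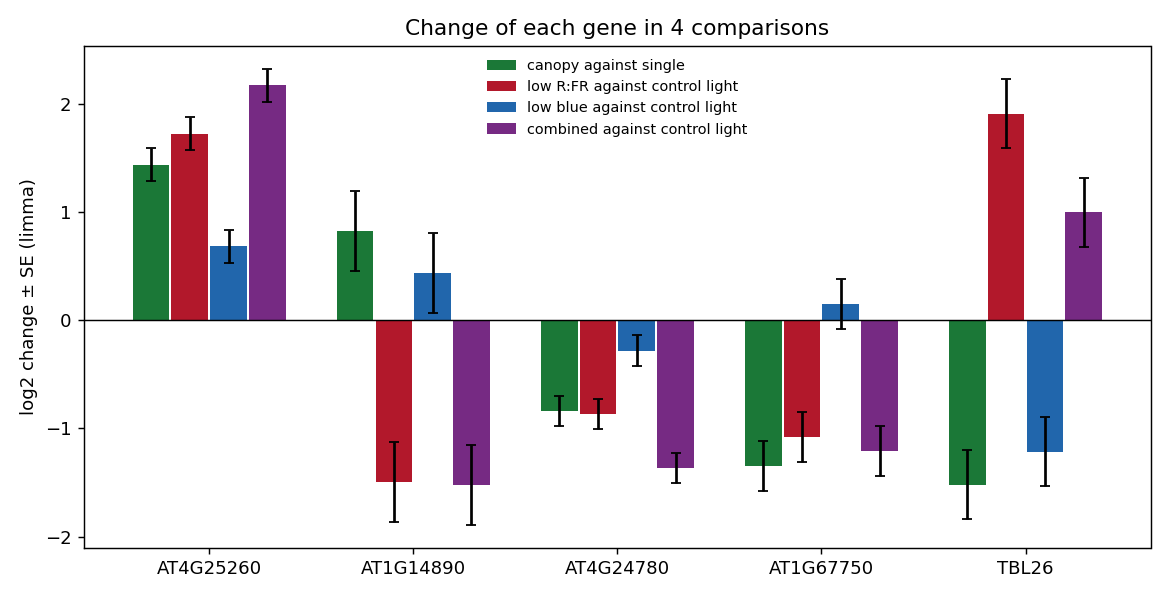
Log2 change (vertical axis) with its standard error from limma for each of the 5 genes in canopy against single plants and in each light treatment against control light. AT4G25260 was above 0 in all 4 comparisons and AT4G24780 below 0 in all 4, while TBL26 was at -1.52 in the canopy and at 1.91 in low R:FR. The 3 light comparisons share the control light arrays.

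The light comparisons ask what each cue of a crowded stand does on its own. AT4G25260 had levels of 6.43, 6.45 and 6.14 in low R:FR, 5.60, 4.91 and 5.39 in low blue and 6.79, 6.73 and 6.85 in the combined treatment, against 4.57, 4.46 and 4.83 in control light. Each of the 3 treatments lay wholly above control light. The log2 changes were 1.72 ± 0.15 in low R:FR, 0.68 ± 0.15 in low blue and 2.17 ± 0.15 in the combined treatment. Without low blue replicate 2 the low blue value was 0.87.

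AT1G14890, the other inhibitor gene, had 3.32, 3.82 and 3.90 in low R:FR, 5.36, 5.84 and 5.62 in low blue and 4.16, 2.78 and 4.01 in the combined treatment, against 5.23, 4.92 and 5.37 in control light. Low R:FR and the combined treatment lay wholly below control light, and low blue overlapped it. The log2 changes were -1.49 ± 0.37, 0.44 ± 0.37 and -1.52 ± 0.37 in low R:FR, low blue and combined. The combined value rests in part on replicate 2, the lowest array of all 18, and was -1.09 without it. Of the 2 inhibitor genes, one was thus higher and the other lower than control light under low R:FR and under the combined treatment.

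The pectate lyase gene AT4G24780 had 6.40, 6.16 and 6.18 in low R:FR, 6.79, 7.02 and 6.69 in low blue and 5.83, 5.53 and 5.89 in the combined treatment, against 7.08, 7.07 and 7.20 in control light. All 3 treatments lay below control light without overlap, with low blue replicate 2 close to the lowest control array. The log2 changes were -0.87 ± 0.14 in low R:FR, -0.28 ± 0.14 in low blue and -1.36 ± 0.14 in the combined treatment.

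AT1G67750, the second pectate lyase gene, had 5.60, 5.55 and 5.42 in low R:FR, 6.47, 7.16 and 6.62 in low blue and 5.10, 5.55 and 5.53 in the combined treatment, against 6.10, 6.69 and 7.02 in control light. Low R:FR and combined lay below control light, and low blue overlapped it. The log2 changes were -1.08 ± 0.23 in low R:FR and -1.21 ± 0.23 in the combined treatment. The low blue value of 0.15 ± 0.23 was smaller than its error, and it turned to -0.11 without control light replicate 1 and to -0.06 without low blue replicate 2.

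TBL26 had 5.69, 5.59 and 4.76 in low R:FR, 2.16, 2.24 and 2.27 in low blue and 4.62, 4.23 and 4.46 in the combined treatment, against 4.06, 3.64 and 2.62 in control light. Low R:FR and combined lay above control light and low blue below it. The low blue arrays lay close together, at levels not far above the floor. The log2 changes were 1.91 ± 0.32 in low R:FR, -1.22 ± 0.32 in low blue and 1.0 ± 0.32 in the combined treatment. Control light replicate 3 was the lowest of its group, and without it these values were 1.5, -1.63 and 0.58.

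Arrays did not overlap control light for 5 of the 5 genes in low R:FR, for 3 in low blue and for 5 in the combined treatment. Over all probe sets the shares were 16.2%, 11.6% and 15.5%. Nothing is read from the members' counts, since the genes had stood out in light comparisons of these data and may have been picked by them.

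Low blue added to low R:FR moved AT4G25260 by 0.45 ± 0.15, AT4G24780 by -0.50 ± 0.14 and TBL26 by -0.91 ± 0.32, each with the combined arrays apart from the low R:FR arrays. AT1G14890 and AT1G67750 stood at -0.03 ± 0.37 and -0.13 ± 0.23, with overlapping arrays. Low R:FR added to low blue separated the arrays of all 5 genes, with 1.49 ± 0.15 for AT4G25260, -1.96 ± 0.37 for AT1G14890, -1.08 ± 0.14 for AT4G24780, -1.35 ± 0.23 for AT1G67750 and 2.21 ± 0.32 for TBL26. How many of all probe sets were apart when 1 cue was added to the other was not computed. Nothing is therefore read from the number of genes apart. The combined change less the sum of both single changes was -0.23 ± 0.21 for AT4G25260, -0.47 ± 0.52 for AT1G14890, -0.22 ± 0.20 for AT4G24780, -0.27 ± 0.33 for AT1G67750 and 0.30 ± 0.45 for TBL26. It was slightly larger than its error for AT4G25260 and AT4G24780 and smaller for the others. These values describe the same arrays and were not tested for the 5 genes.

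Set side by side, AT1G67750 had log2 changes of -1.35 in the canopy, -1.08 in low R:FR and -1.21 in the combined treatment. AT4G24780 had -0.84 in the canopy, -0.87 in low R:FR and -1.36 in combined. AT4G25260 had 1.44, 1.72 and 2.17 in the same order. For AT1G14890 the canopy value of 0.82 and the low blue value of 0.44 were positive, and the low R:FR and combined values were negative. For TBL26 the canopy (-1.52) and low blue (-1.22) values were negative, and low R:FR (1.91) and combined (1.0) positive. The differences between canopy and light changes were not tested.

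In the order of group means, AT4G25260 ran from combined (6.79 ± 0.06, SD, n = 3) through low R:FR (6.34 ± 0.17), canopy (5.65 ± 0.09), low blue (5.30 ± 0.35) and control light (4.62 ± 0.19) to single plants (4.21 ± 0.18), and canopy and low blue alone among neighbours overlapped. AT4G24780 ran in the reverse direction, from single plants (7.42 ± 0.08) through control light (7.11 ± 0.07), low blue (6.83 ± 0.17), canopy (6.58 ± 0.31) and low R:FR (6.25 ± 0.13) to combined (5.75 ± 0.19), with overlap between low blue and canopy and between canopy and low R:FR. AT1G67750 formed a high set of low blue (6.75 ± 0.37), single (6.69 ± 0.11) and control light (6.60 ± 0.47) and a low set of low R:FR (5.52 ± 0.09), combined (5.40 ± 0.25) and canopy (5.34 ± 0.41), and neighbours within each set overlapped.

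AT1G14890 ran from low blue (5.61 ± 0.24) over canopy (5.21 ± 0.53), control light (5.17 ± 0.23) and single plants (4.39 ± 0.75) to low R:FR (3.68 ± 0.31) and combined (3.65 ± 0.76), and every pair of neighbours overlapped. TBL26 ran from low R:FR (5.35 ± 0.51) over single (5.07 ± 0.53), combined (4.44 ± 0.20), canopy (3.55 ± 0.23) and control light (3.44 ± 0.74) to low blue (2.22 ± 0.06), with gaps between combined and canopy and between control light and low blue. The 2 untreated groups, single plants of 37 d and control light plants of 29 d, differed most for TBL26, by 1.63, with no overlap. They were also apart for AT4G25260 (-0.41, single minus control light) and AT4G24780 (0.30). They overlapped for AT1G14890 and AT1G67750. The share of all probe sets apart between these untreated groups was not computed. Age and experiment cannot be told apart here.

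**Figure D3:**
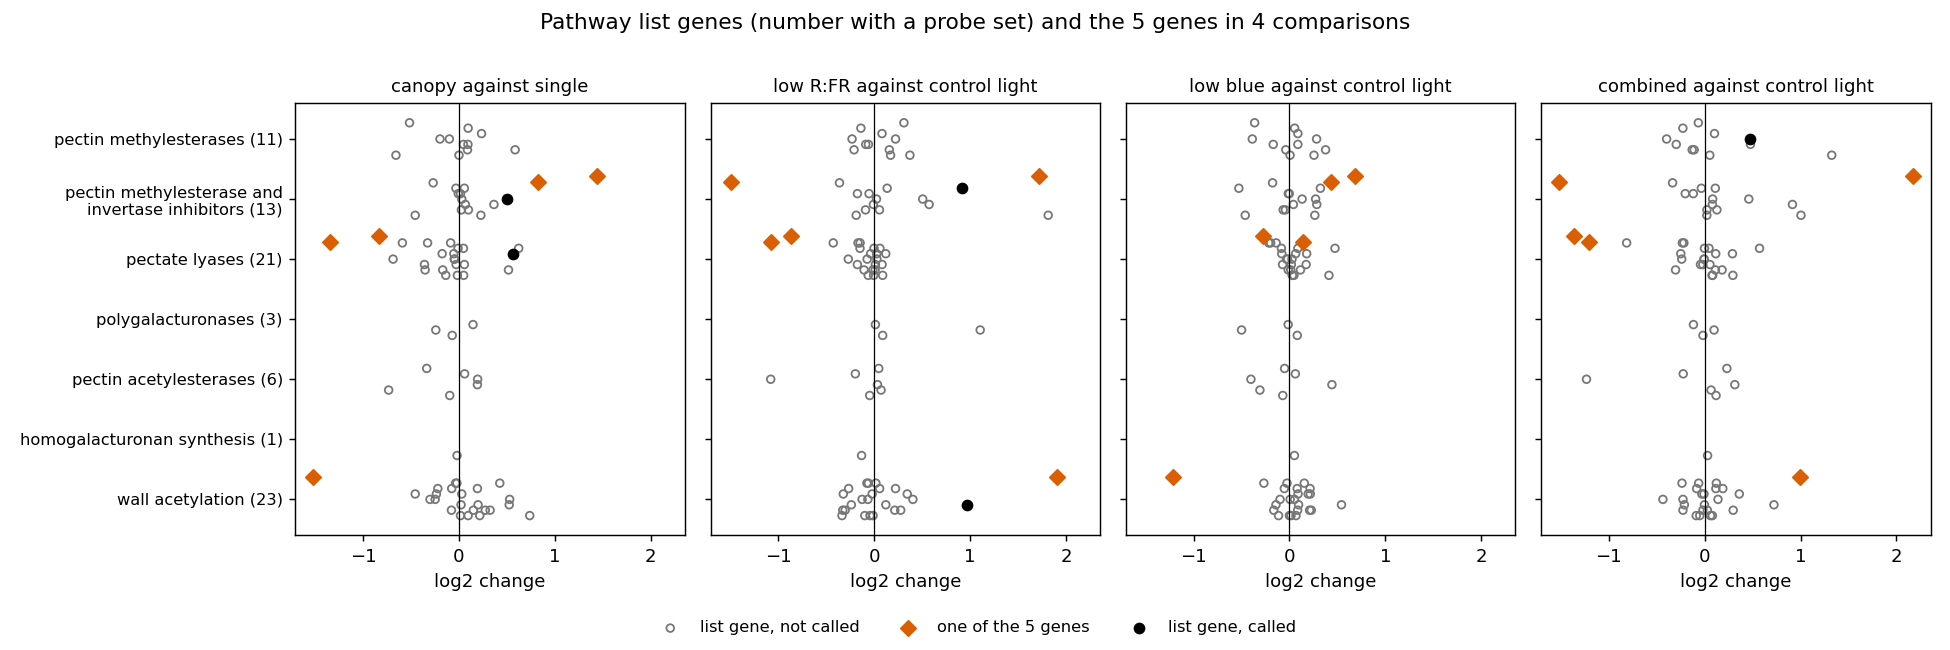
Log2 change (horizontal axis) of the 78 pathway genes, grouped by list down the page, in 4 comparisons, with filled circles for genes called by limma and diamonds for the 5 genes on the row of their family. The filled circles number 2 in the canopy, 2 in low R:FR, 0 in low blue and 1 in the combined treatment.

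The other genes of the pathway give the setting. Lists of 184 genes were drawn up for 7 steps of pectin building, modification and cleavage and of wall acetylation, without the 5 genes, and 78 of them had a probe set of their own. Of these, 35 had a mean below 1.5, where a change could hardly be seen. In the canopy 2 of the 78 were called, both higher, which is 2.56% against 4.26% of all probe sets, and their median log2 change was 0.0079 against -0.0049 over all probe sets. In low R:FR 2 were called, both higher (2.56%, against 0.866% of all probe sets in either direction and 0.62% higher). In the combined treatment 1 was called, also higher (1.28%, against 2.26% in either direction, 1.55% higher and 0.712% lower), and in low blue 0 by limma (against 0.58%). At an unadjusted p under 0.05 the lists held 19 genes in the canopy (24.4%, against 14.2% of all probe sets), 12 in low R:FR (15.4% against 11.8%), 8 in low blue (10.3% against 9.61%) and 19 in the combined treatment (24.4% against 12.6%). The list medians in the 3 light treatments were -0.01, 0.02 and 0.02 for low R:FR, combined and low blue, against -0.01, -0.0044 and 0.0012 over all probe sets.

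The inhibitor list holds 13 other genes, for inhibitors of pectin methylesterases or of invertases, which the list does not tell apart. Of these, AT1G62770 rose in the canopy, with a mean level of 1.29 ± 0.10 against 0.79 ± 0.10 in single plants (SD, n = 3 each) (log2 change 0.50 ± 0.13, limma adjusted p = 0.0378). Both groups were near the floor, and the call was lost with any 1 of the 6 arrays left out. AT3G17130 rose in low R:FR, at 5.59, 5.68 and 5.70 against 4.38, 4.78 and 5.08 in control light (0.91 ± 0.15, limma adjusted p = 0.00592), a call that held in all 6 leave-outs. In the canopy it stood at -0.03 ± 0.15. It was also lower in the combined treatment than in low R:FR (-0.80 ± 0.15, limma adjusted p = 0.0217), the 1 gene called there (1.28%, against 0.448% of all probe sets, 0.259% lower). Against low blue it was higher in the combined treatment (0.64 ± 0.15, limma adjusted p = 0.049), again the 1 gene called (against 1.28% of all probe sets), and both calls were lost in every leave-out. The call against low blue also ended with an intensity trend (limma adjusted p = 0.0621), array weights (0.0537), the light arrays alone (0.0628) and the replicate block (0.0516). AT1G23205, also among the genes of like pattern named further on, had a log2 change of 1.81 ± 0.42 in low R:FR, which did not pass (limma adjusted p = 0.0549). Its control light arrays were far apart, at 3.22 to 5.22.

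Among 21 other pectate lyase genes, AT5G48900 rose in the canopy, at 7.74, 7.81 and 7.90 against 7.17, 7.24 and 7.35 in single plants (log2 change 0.56 ± 0.11, limma adjusted p = 0.00496), the direction opposite to AT4G24780 and AT1G67750, and held its call in all 6 leave-outs. Under the light treatments none of the 21 was called in the main fit. In the combined treatment the largest change of the list was that of AT5G63180, at -0.81 ± 0.21 (limma adjusted p = 0.0528). It was called there with quantile normalization, an intensity trend, array weights and a mean of at least 2. In the canopy AT5G63180 was lower without a call, at 6.56 to 6.79 against 6.95 to 7.42 in single plants. AT3G07010, also not called, was higher, at 5.71 to 5.88 against 4.80 to 5.47. The list median in the canopy was -0.05.

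Of 11 pectin methylesterase genes, AT3G49220 rose in the combined treatment, at 8.65, 8.73 and 8.73 against 8.08, 8.26 and 8.37 in control light (0.47 ± 0.12, limma adjusted p = 0.0408), and lost the call in 5 of 6 leave-outs. The call also ended with quantile normalization (limma adjusted p = 0.0612), with the light arrays alone (0.0706) and with the replicate block (0.0701). ATPMEPCRB, also of this list, had the largest change there, 1.33 ± 0.40, without passing (limma adjusted p = 0.115). None of the 11 was called in the canopy, low R:FR or low blue.

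Of 23 other genes of wall acetylation, TBL37 rose in low R:FR, at 4.62, 4.82 and 4.88 against 3.67, 3.67 and 4.09 in control light (0.96 ± 0.19, limma adjusted p = 0.0191), and lost the call in 3 of 6 leave-outs. In the canopy, where TBL26 fell, TBL37 stood at 0.52 ± 0.19 (limma adjusted p = 0.166), and in low blue, where TBL26 was low, at 0.54 ± 0.19 (0.283). In the combined treatment, where TBL26 was higher, TBL37 was higher too, at 4.48 to 4.58 against 3.67 to 4.09 in control light. It was not called there in the main fit, but was with quantile normalization, array weights and a mean of at least 2. A probe set was named for 3 of 12 listed polygalacturonase genes, which cleave the chain by hydrolysis, and 2 of the 3 had a mean below 1.5. It was so for 6 of 14 pectin acetylesterase genes and for 1 of 29 homogalacturonan synthesis genes, GAUT15. None of these genes with a probe set was called in these 4 comparisons, and the rest could not be seen.

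**Figure D4:**
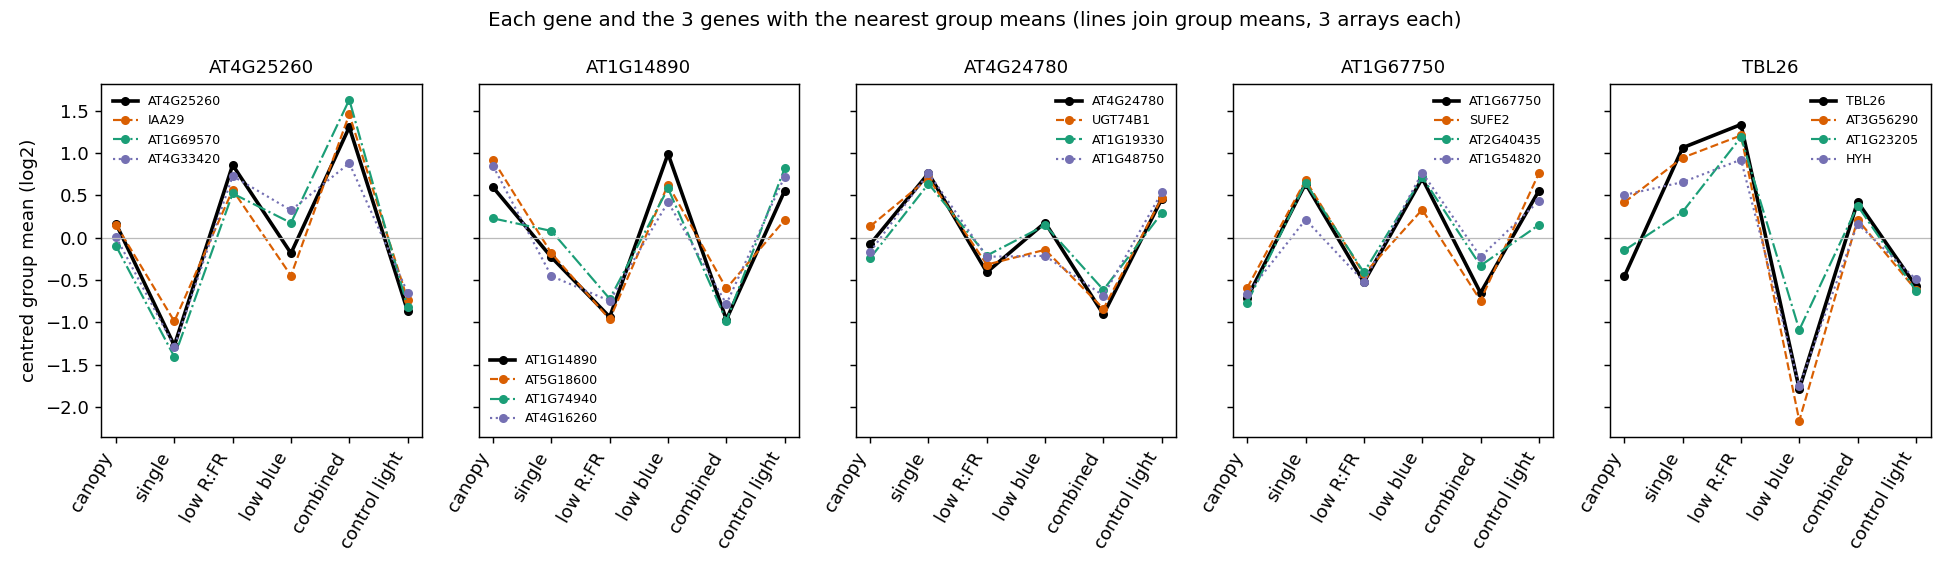
Group means of each of the 5 genes and of the 3 genes nearest to it, each less its own mean over the 6 groups (log2, vertical axis), joined by lines in the order of the groups. IAA29 follows AT4G25260 with a root mean square difference of 0.22, and AT3G56290 follows TBL26 with 0.40.

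Genes with a like pattern were sought over the 6 group means, each less its own mean, by the root mean square difference on the log2 scale. Nearest to AT4G25260 was IAA29, an auxin-inducible repressor gene of auxin response, at 0.22, where AT4G25260 itself varied by 0.90 about its mean. IAA29 had group means of 2.10 in the canopy and 0.96 in single plants, and of 2.51, 1.5 and 3.41 under low R:FR, low blue and the combined treatment, against 1.22 in control light. Its single plant and control light means lie below 1.5, near the floor, where changes come out too small, so its distance is uncertain. AT1G69570 (0.27) and AT4G33420 (0.30) followed. For AT1G14890 the nearest genes were AT5G18600 (0.29), AT1G74940 (0.29) and AT4G16260 (0.30), of which AT4G16260 also had group means below 1.5.

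Nearest to AT4G24780 was UGT74B1, a glucosyltransferase gene of glucosinolate synthesis, at 0.17, followed by AT1G19330 (0.18) and AT1G48750 (0.20). For AT1G67750 they were SUFE2 (0.19), also with group means below 1.5, AT2G40435 (0.22) and AT1G54820 (0.25). TBL26 varied most, by 1.07 about its mean, and had no gene nearer than AT3G56290 (0.40), with AT1G23205 of the inhibitor list (0.44) and HYH, a bZIP gene of light signalling (0.47), next. These genes differed less from single plants in the canopy than TBL26 did. AT3G56290 had 6.29 in the canopy and 6.82 in single plants, and HYH had 4.42 in the canopy and 4.57 in single plants. These neighbours describe 6 group means and were not tested.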

How the data were processed

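The deposited log2 values of 22810 probe sets on 18 arrays were used. The submitters' processing notes name RMA, with no version, and no source used here says which arrays were normalized together. The 64 control probe sets were set aside. The log base was checked on bacterial control transcripts: cre lay 6.32 above bioB, against nominal steps of 6.06 in log2 and 4.2 in natural log. Platform annotation, with symbols updated through the RefSeq gene table, gave 13513 probe sets 1 gene, 503 several and 8730 none listed. For a gene with several probe sets the one with the highest mean was used.

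One model with the 6 group means and no other term was fitted over the 18 arrays in limma 3.58.1 (R 4.3.3) and moderated by eBayes, with 12 residual degrees of freedom and 4.41 from the prior. Tests were two-sided, with the Benjamini-Hochberg adjustment taken across 22746 probe sets for each comparison. The fit was tested on simulated data. The value after ± is limma's SE for a change and the SD for a level, and the number of arrays limits the precision. Pathway genes were listed by locus, symbol or full name. Those named were the called ones and some, not all, of the genes with the largest change of a list in a comparison. The 5 genes and the lists were chosen with earlier results of these data known. No 2 arrays were identical, and correlations within groups ran from 0.978 to 0.994. Replicate numbers were not treated as pairs in the main fit, and the labels do not say whether they mark a shared batch. Deviations of same-numbered arrays correlated at 0.17, 0.33 and 0.06 between canopy and single plants, and differently numbered ones at -0.355 to 0.175. Between light treatments and control light the values were -0.40 to 0.34 for same numbers and -0.38 to 0.397 for different numbers. Whether the arrays are paired was not settled. Alternatives were quantile normalization, an intensity trend, robust variances, array weights, a mean of at least 2, each experiment alone, a replicate block, and leaving out arrays. No sequences are shown.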

Additional observations from a re-analysis of the deposited data

How the results depend on the processing

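For the 5 genes in the canopy, direction and side of the threshold held under all 7 alternatives without a left-out array (35 of 35 values), the replicate block included, and in 29 values with 1 array left out. The 1 exception was TBL26, with values of -1.81 to -1.30 and its call lost without single plant replicate 3 (limma adjusted p = 0.0644). Light values of the 5 genes moved by less than the spread between replicates in 120 of 120 values without a single left-out array. These include control light replicate 2 as the only control, chosen after the data were seen, which assumes that the lone array varies like the other groups. An intensity trend, robust variances, a mean of at least 2, each experiment alone and the replicate block leave a log2 change as it is. In those settings no light value could move and no canopy direction could turn. Only the adjusted p in the canopy could change there. Leave-outs gave 1.5 to 2.22, -1.63 to -0.90 and 0.58 to 1.31 for TBL26 in low R:FR, low blue and combined, 0.53 to 0.87 for AT4G25260 in low blue, and -0.11 to 0.35 for AT1G67750 in low blue, where the sign turned (-0.11 and -0.06). The cause was not tested.

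Counts of pathway genes called were small and moved easily. In the canopy the count of 2 became 4 with array weights and 1 with a mean of at least 2, and 1 to 2 in leave-outs (1 without canopy replicate 1 or 2 or single replicate 3). In low R:FR it became 4 with array weights, 0 with control light replicate 2 alone, and 1 to 7 in leave-outs (7 without control light replicate 1). The combined count of 1 became 2 with quantile normalization, an intensity trend or the replicate block (AT3G49220 was not among the called genes with quantile normalization or the block), 3 with array weights, 4 with a mean of at least 2, and 0 with the light arrays alone or control light replicate 2 alone, and 0 to 3 in leave-outs. For low blue leave-outs gave 0 to 1. For combined against low R:FR leave-outs gave 0 to 0. For combined against low blue they gave 0 to 1, and 0 with an intensity trend, array weights or the light arrays alone. With the replicate block the counts were 3 in the canopy, 3 in low R:FR and 2 in the combined treatment; the numbers share no stated origin in the labels. Each of the 5 genes has 1 probe set, so no other probe set could be tried.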

Other observations

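None of the genes beside the 5 on the chromosome that have a probe set was called by limma in the canopy or in a light treatment against control light. Neither neighbour of AT1G14890 had a probe set. Of all probe sets, limma called 4.26% in the canopy and 0.866%, 0.58% and 2.26% in low R:FR, low blue and combined. Nothing is therefore read from the lack of calls among so few genes. AT4G25250, listed with the inhibitors and next to AT4G25260 in the RefSeq gene table, had group means of 0.79 to 1.03, near the floor, and a log2 change of 0.10 ± 0.11 in the canopy (limma adjusted p = 0.792). GT72B1, next to TBL26, changed by -0.19 ± 0.19 in the canopy (limma adjusted p = 0.765), and AT1G67760, next to AT1G67750, by -0.39 ± 0.20 (0.409).

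In 2 other wall genes, as in AT1G23205 of the inhibitor list (3.22 to 5.22), the control light arrays lay far apart. The polygalacturonase gene AT1G48100 had 6.05 to 6.31 in low R:FR against 3.87 to 6.15 in control light (log2 change 1.10 ± 0.39, limma adjusted p = 0.251). The pectin acetylesterase gene AT3G09405 had 1.32 to 1.80 in low R:FR against 1.38 to 3.49 in control light (-1.08 ± 0.47, limma adjusted p = 0.37).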
